A study of Mus musculus with 20 samples.

Results

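The genes described here are 7 peptide-handling genes of the enterocyte brush border (Anpep, Ace, Dpp4, Enpep, Mep1a, Mep1b and the peptide carrier Slc15a1) together with Alpi, the intestinal alkaline phosphatase. They were chosen by name: every probe whose gene name in the array files was one of the 8 was taken, which gave 14 of 56605 probes and 8 of 25034 named genes. All 8 had a probe well above background on every one of the 20 arrays, so all 8 entered both comparisons. A gene with several probes is represented by its brightest probe. Levels are log2 values relative to the 75th percentile of each array, so 0 is the level of that percentile, and levels of different genes, which come from different probes, are not set against each other.

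Transcripts were measured in intestinal tissue of C57BL6/j mice on 20 arrays in 4 groups, and p-values measure the spread between these arrays. Cre control mice (n = 6) carried the VillinCreER/0 transgene alone and BRAFV600E mice (n = 6) carried VillinCreER/0 with the BrafV600E-LSL/+ allele. Per the study's methods these 12 mice were 8 to 12 weeks old, 3 daily doses of 2 mg tamoxifen were given to control and mutant mice alike, and tissue was taken 3 days after the last dose. MEKi (n = 4) and Vehicle (n = 4) mice received 2 tamoxifen injections and then 3 daily injections of the MEK inhibitor PD184352 or of its carrier, 10% DMSO with 10% Cremophor EL. Each of these injections held less tamoxifen than a dose of the other experiment. The study's general methods give 8 to 12 weeks as the age at induction. A genotype for MEKi and Vehicle mice is missing from the labels and was taken from the study's legends, which describe mice expressing the mutant allele. The Villin promoter drives Cre in the gut epithelium, whereas the arrays measured whole pieces of intestine whose position along the gut is not given in the sources used here, and fewer cells of a type cannot be told apart from less RNA per cell. The epithelial marker Vil1 lay between 6.59 and 7.62 on all 20 arrays.

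Proteins of a meal are cut to short peptides in the gut lumen, and the last cuts are made by peptidases anchored in the microvilli of enterocytes. Aminopeptidases such as aminopeptidase N (Anpep) and aminopeptidase A (Enpep) take single residues from the amino end, dipeptidyl peptidase 4 (Dpp4) and angiotensin converting enzyme (Ace) release dipeptides, and the meprins (Mep1a, Mep1b) cut within chains. Short peptides then enter the cell through the proton-coupled carrier PEPT1 (Slc15a1). Alkaline phosphatase of the same membrane removes phosphate groups from lipids, nucleotides and bacterial lipopolysaccharide. These genes are known to be graded along the small intestine, some highest near the stomach and others further down.

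Before the results, 2 arrays have to be named. BRAFV600E replicate 2 and Vehicle replicate 2 stood apart from the other 18 arrays in genes of the proximal small intestine. Cybrd1, the duodenal ferric reductase, was at 6.45 and 6.27 on these arrays and at -0.33 or lower on every other. Slc40a1, the iron exporter ferroportin, was at 4.98 and 5.48 there and at 0.96 or lower elsewhere. Over 7 genes of the proximal small intestine (Gata4, Onecut2, Cybrd1, Ada, Slc40a1, Fabp1 and Apoa4) the mean level was 6.0 and 6.40 on these arrays, 4.48 on BRAFV600E replicate 5, 4.31 on BRAFV600E replicate 1 and between 3.13 and 3.75 on the other 16. Vehicle replicate 2 also had a mean of 7.31 over 6 exocrine pancreas genes, against -3.38 to -2.08 on the other 19 arrays. The part of these features in the results was not tested, and the members' results are given with and without these arrays where leaving them out moves a value by much.

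BRAFV600E against Cre control asks what the mutant kinase changes in the gut within days. Mep1a, which encodes the alpha subunit of meprin, was lower and Alpi was higher in BRAFV600E tissue, and the other 6 genes did not pass the test at an adjusted p under 0.05. Over all 19037 genes tested, 12.9% passed this threshold, 6.4% as higher and 6.51% as lower, and the 2 calls among 8 genes are read against that share. The median log2 fold change of the 8 genes was -0.68, against -0.02 over all genes tested. The fold change was below 0 for 6 of the 8 genes (51.7% of all genes) and above 0 for the other 2 (48.3% of all genes).

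Mep1a carried the largest difference of the 8. Its level ran from 2.78 to 3.62 in Cre control mice with a median of 3.11, and from -0.63 to 0.95 in BRAFV600E mice with a median of 0.21. The groups did not overlap, which held in the lower direction for 3.26% of all genes tested. The mean was 3.14 ± 0.28 in Cre control and 0.14 ± 0.69 in BRAFV600E (SD, n = 6 each), a level 8.01-fold lower in the mutant tissue. The log2 fold change was -3.0 with a standard error of 0.28 (limma, Benjamini-Hochberg adjusted p = 6.3e-05). Unlike several other members, Mep1a was low on all 6 BRAFV600E arrays: without replicate 2 the log2 fold change was -2.93 (limma, adjusted p = 0.00023). The single Mep1a probe lies at chr17:43611284-43611343 on the minus strand of mouse build mm9.

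The other meprin subunit did not follow. Mep1b, the beta subunit, which anchors meprin in the membrane, ranged from 3.17 to 4.31 in Cre control mice (median 3.79) and from 3.40 to 4.38 in BRAFV600E mice (median 3.98). The 2 ranges overlapped almost completely. The log2 fold change was 0.19 with a 95% interval of -0.38 to 0.77 (limma, adjusted p = 0.671), so a change as large as that of Mep1a lies outside the interval. Of the other Mep1b probes, 1 was well above background on 19 arrays with a log2 fold change of 0.095 and 1 was not well above background on any array.

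The meprin subunits were also set against each other within each array, a comparison chosen after their values had been seen. The log2 level of Mep1a minus that of Mep1b, which also contains the fixed difference between the probes, ran from -1.28 to 0.46 in Cre control and from -4.07 to -3.42 in BRAFV600E mice. The group means were -0.60 and -3.79, and the ranges did not overlap. In MEKi against Vehicle it ran from -1.96 to -0.21 on MEKi arrays and from -3.74 to -1.41 on Vehicle arrays, which overlapped. Since the pair was chosen for its values, no test is given, and 4 of the 6 BRAFV600E arrays were on a slide without controls.

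Alpi was the only one of the 8 genes called as higher. Its level ran from 3.73 to 4.62 in Cre control mice (median 4.18) and from 5.32 to 7.21 in BRAFV600E mice (median 5.93), and every mutant array lay above every control array. Groups separated in this direction for 4.23% of all genes tested. The mean rose from 4.13 ± 0.33 to 5.97 ± 0.69 (SD, n = 6 each), 3.58-fold on the linear scale, with a log2 fold change of 1.84 and a standard error of 0.29 (limma, adjusted p = 0.0024). The highest value belonged to BRAFV600E replicate 2, and without it the log2 fold change was 1.59 (limma, adjusted p = 0.0012). The Alpi probe lies at chr1:88994890-88994949 on the minus strand of mm9.

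**Figure D1:**
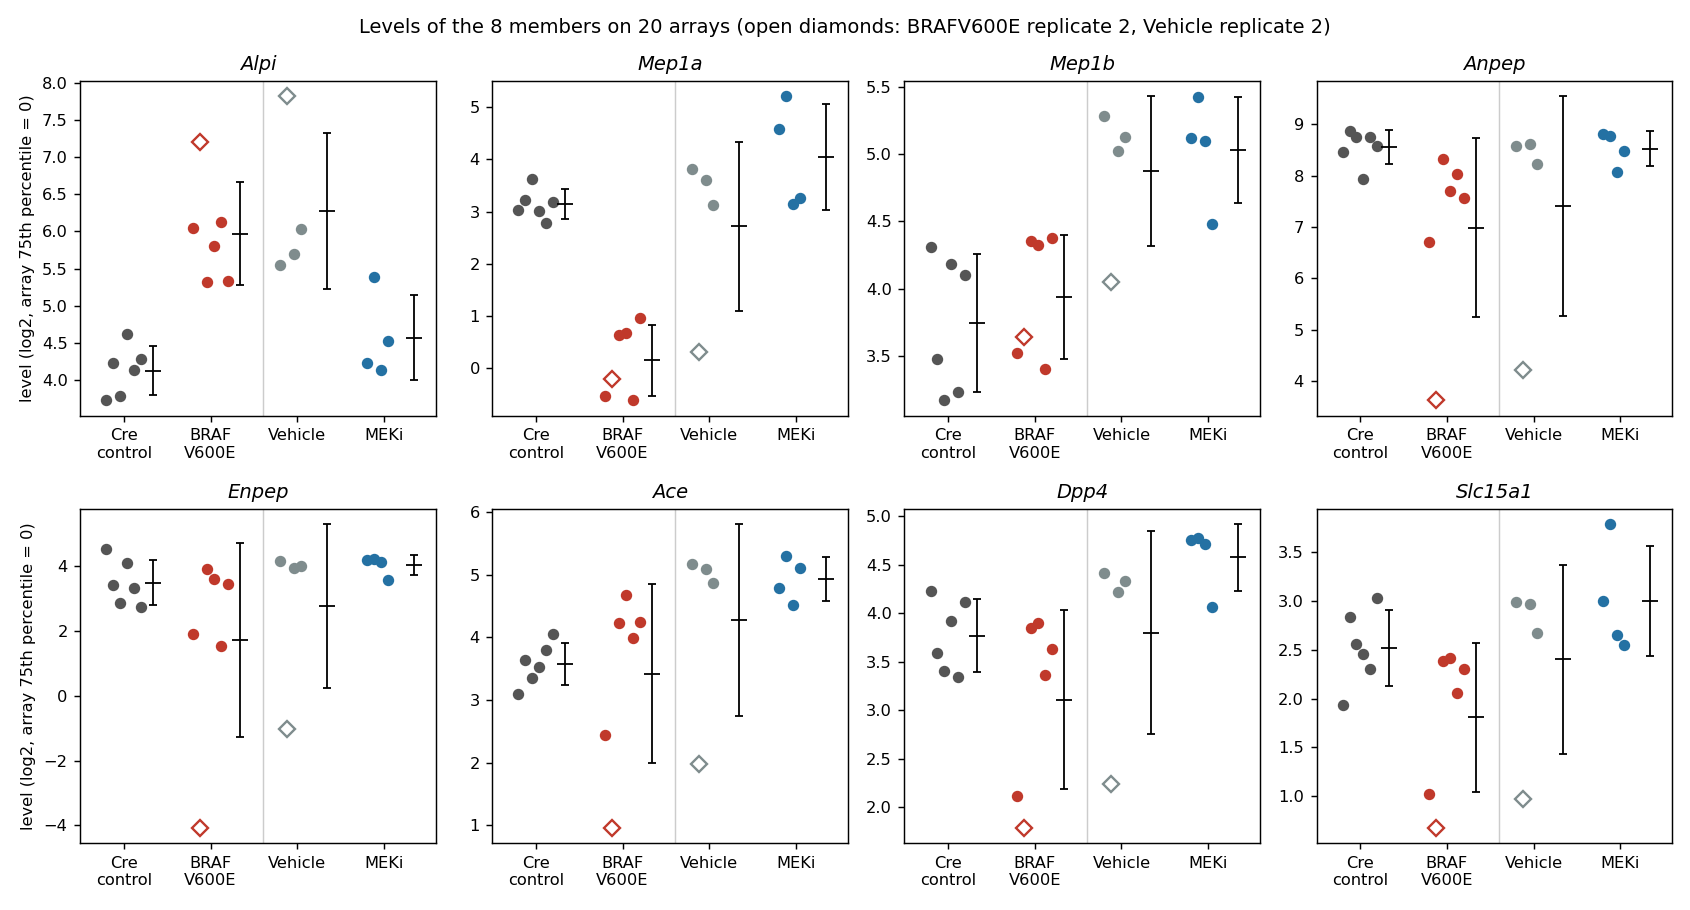
Level of each of the 8 genes on every array (log2, relative to the 75th percentile of the array) in the 4 groups, with a black bar for the mean and its SD. Open diamonds mark BRAFV600E replicate 2 and Vehicle replicate 2. Mep1a is below 1 and Alpi above 5 on all 6 BRAFV600E arrays, whereas in Anpep, Enpep and Ace the spread comes mainly from the open diamonds.

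Mouse has 3 further alkaline phosphatase genes, of which Akp3 (a duodenal form) and Alppl2 (an embryonic form) lie beside Alpi on chromosome 1, while Alpl encodes the tissue-nonspecific enzyme. Alppl2 ran from -3.67 to -2.06 in Cre control (median -2.83) and from -2.06 to 2.47 in BRAFV600E (median -1.35), without overlap but with the lowest mutant array almost at the highest control array. Its log2 fold change was 2.16 with a standard error of 0.66 (limma, adjusted p = 0.0486) and 1.52 without BRAFV600E replicate 2 (limma, adjusted p = 0.024). The Alppl2 call depended on single arrays. Without Cre control replicate 1, 2, 3, 5 or 6, or BRAFV600E replicate 1, 4 or 5, Alpi was the only gene of the family called. Leaving out any other array kept at least 2 of the family as higher. Akp3 ran from -5.23 to -3.35 in Cre control (median -4.50), where 4 of 6 arrays were well above background, and from -3.61 to 3.38 in BRAFV600E (median -1.83). Akp3 did not pass the test: the log2 fold change was 3.13 with a standard error of 1.02 (limma, adjusted p = 0.0606), and 2.21 without replicate 2 (limma, adjusted p = 0.059). Alpl, with a log2 fold change of -0.37 (95% interval -0.85 to 0.10, limma, adjusted p = 0.274), did not share the direction of the other 3. The 3 clustered genes are similar in sequence, and cross-hybridisation between their probes was not tested.

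**Figure D2:**
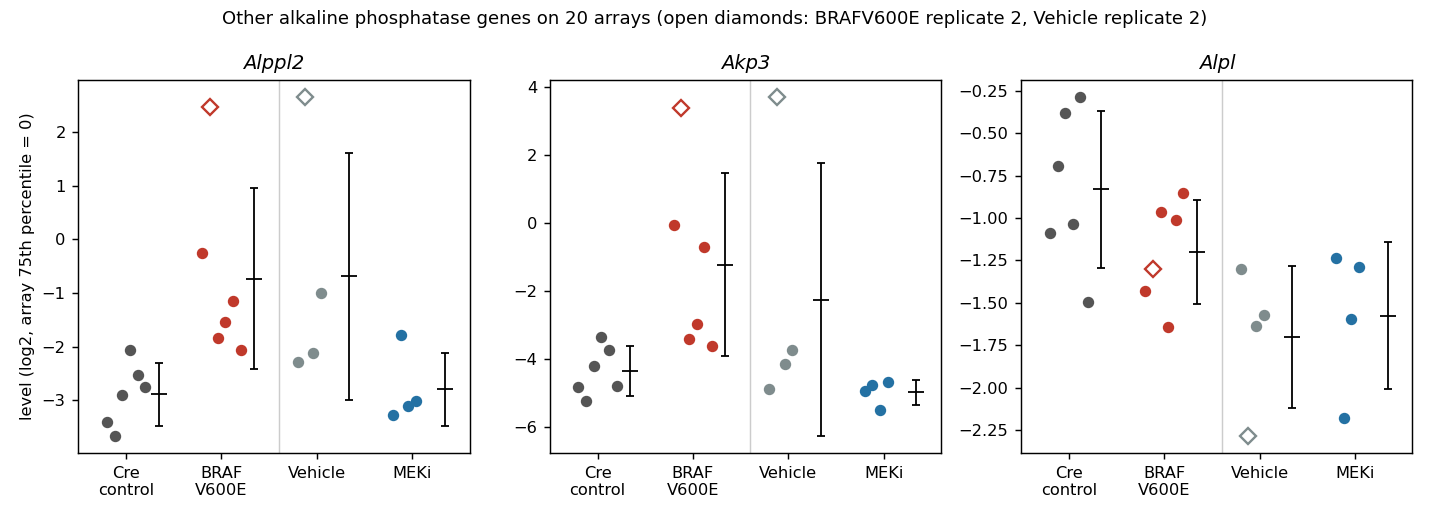
Level of Alppl2, Akp3 and Alpl on every array (log2, relative to the 75th percentile of the array) in the 4 groups, with a black bar for the mean and its SD. The open diamonds, BRAFV600E replicate 2 and Vehicle replicate 2, are the highest values of Alppl2 and Akp3, at 2.47 and 2.66 and at 3.38 and 3.71.

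The 250 bases before the annotated start of Alpi, Alppl2 and Akp3 are printed because these neighbours had the largest positive fold changes of their family, and those of Mep1a because it had the largest negative one among the members. Sequences are from RefSeq (GRCm38.p6), 5′ to 3′ on the strand of the gene, and 7 of the 8 members had an entry in the table used. Capitals mark the only runs of at least 10 bases that the 3 alkaline phosphatase windows share, both 13 bases long. The runs were picked from these 3 windows, which are included in the counts that follow, so the counts carry no test. The first run, TTCAGTTCACAGG, occurs on either strand in 9 of 32851 RefSeq promoter windows of this length (0.0274%) and the other, GGGTGGGGCCAGG, in 15 (0.0457%).
Alpi, chr1:87101607-87101856, minus strand: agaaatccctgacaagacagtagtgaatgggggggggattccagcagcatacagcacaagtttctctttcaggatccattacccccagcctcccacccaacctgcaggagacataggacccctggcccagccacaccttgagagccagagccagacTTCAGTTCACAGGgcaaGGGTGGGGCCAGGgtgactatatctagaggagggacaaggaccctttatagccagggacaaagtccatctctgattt
Alppl2, chr1:87089929-87090178, minus strand: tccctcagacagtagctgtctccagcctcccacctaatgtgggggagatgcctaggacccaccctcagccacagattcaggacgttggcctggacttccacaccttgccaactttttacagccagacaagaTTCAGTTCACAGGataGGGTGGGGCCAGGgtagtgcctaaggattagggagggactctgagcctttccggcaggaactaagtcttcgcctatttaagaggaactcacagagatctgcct
Akp3, chr1:87124704-87124953, plus strand: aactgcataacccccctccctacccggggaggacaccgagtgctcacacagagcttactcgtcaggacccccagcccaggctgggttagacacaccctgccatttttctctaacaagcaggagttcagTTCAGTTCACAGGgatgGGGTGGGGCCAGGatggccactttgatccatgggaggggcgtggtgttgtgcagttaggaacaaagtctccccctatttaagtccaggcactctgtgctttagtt
Mep1a, chr17:43502774-43503023, minus strand: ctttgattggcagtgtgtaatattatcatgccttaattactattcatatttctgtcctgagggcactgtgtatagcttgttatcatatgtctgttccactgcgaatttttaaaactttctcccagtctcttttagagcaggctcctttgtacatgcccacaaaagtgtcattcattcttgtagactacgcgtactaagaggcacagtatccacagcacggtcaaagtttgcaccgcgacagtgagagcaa

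In these windows 7 short motifs were searched on both strands. They were GTTAAT for HNF1, CAAAGTCCA for HNF4, TTTATNG for CDX factors, AGATAA for GATA factors, GGGCGG as the GC box, CACCC for Krüppel-like factors and TATAAA as the TATA box. Alpi holds CAAAGTCCA beginning 19 bases before the start, a run found in 0.384% of all windows, and TTTATNG beginning 33 bases before the start (9.81% of windows), where it overlaps TATAAA on the other strand (12.4%). Alpi, Alppl2 and Akp3 hold CACCC, as do 52% of all windows, and the Mep1a window holds none of the 7. The 7 members with an entry have 8 windows, since Ace has a pair of starts. GTTAAT was in none of these 8 (6.43% of all windows), CAAAGTCCA and AGATAA in 1 each (0.384% and 9.99%), TTTATNG and GGGCGG in 2 each (9.81% and 32.7%), TATAAA in 4 (12.4%) and CACCC in 7 (52%). A match is a description of letters and not of a bound site.

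Anpep and Enpep, the aminopeptidases, had the next largest negative fold changes, and in both BRAFV600E replicate 2 was the lowest array. Anpep ran from 7.93 to 8.87 in Cre control (median 8.66) and from 3.62 to 8.32 in BRAFV600E (median 7.63), with the lowest value on replicate 2 and the next lowest, 6.71, on replicate 1. The log2 fold change was -1.57 with a standard error of 0.65 (limma, adjusted p = 0.126), and without replicate 2 it was -0.89 with a standard error of 0.27 (limma, adjusted p = 0.063). Enpep ran from 2.73 to 4.52 in Cre control (median 3.36) and from -4.08 to 3.91 in BRAFV600E (median 2.68), where the value of -4.08 was again replicate 2 and the remaining 5 arrays lay between 1.53 and 3.91. Its log2 fold change was -1.77 (95% interval -4.20 to 0.67, limma, adjusted p = 0.313) and -0.61 without that array (limma, adjusted p = 0.45). The second Enpep probe gave -2.79 (adjusted p = 0.044 where limma was run on every probe).

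Dpp4 and Ace, which release dipeptides, did not pass the test. Dpp4 ran from 3.34 to 4.23 in Cre control (median 3.76) and from 1.78 to 3.90 in BRAFV600E (median 3.50), with a log2 fold change of -0.66 (95% interval -1.47 to 0.15, limma, adjusted p = 0.252) and -0.40 without replicate 2 (limma, adjusted p = 0.447). Its 3 probes shared the sign, and the second of them passed at -1.44 (adjusted p = 0.022 where limma was run on every probe). Ace ran from 3.10 to 4.06 in Cre control (median 3.59) and from 0.95 to 4.67 in BRAFV600E (median 4.11). BRAFV600E replicates 1 and 2 lay below all 6 control arrays and 3 others lay above all of them, so the log2 fold change of -0.16 (95% interval -1.34 to 1.01, limma, adjusted p = 0.877) averages arrays that went apart, and without replicate 2 it was 0.33 (limma, adjusted p = 0.576).

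Slc15a1, the peptide carrier, ran from 1.93 to 3.03 in Cre control (median 2.51) and from 0.67 to 2.42 in BRAFV600E (median 2.18). The lowest mutant values were replicates 1 and 2, at 1.03 and 0.67, and the other 4 lay within the control range. The log2 fold change was -0.71 (95% interval -1.41 to -0.01, limma, adjusted p = 0.161) and -0.48 without replicate 2 (limma, adjusted p = 0.285). The second Slc15a1 probe, well above background on all 20 arrays, gave -0.32 (adjusted p = 0.524 where limma was run on every probe).

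Slide and replicate bear on these 5 genes together. One slide held all 6 controls beside BRAFV600E replicates 1 and 2, and BRAFV600E replicates 3 to 6 were on another that held no control. A fit with the slide as a block therefore compares replicates 1 and 2 with the controls beside them. It called 7 of the 8 genes, and 1568 of all 19037 genes tested. In that fit the log2 fold changes were -3.39 for Anpep, -4.57 for Enpep, -1.89 for Ace, -1.82 for Dpp4, -1.67 for Slc15a1, -3.52 for Mep1a and 2.49 for Alpi (limma, adjusted p from 0.00027 to 0.0373), and -0.16 for Mep1b (limma, adjusted p = 0.803). Within that slide alone 6 of the 8 genes and 731 of all 19037 were called, and Enpep was not (limma, adjusted p = 0.0933). With BRAFV600E replicates 3 to 6 only, Mep1a at -2.74 (limma, adjusted p = 0.00065) and Alpi at 1.51 (limma, adjusted p = 0.004) were called and the other 6 were not, with Ace at 0.70 and Dpp4 at -0.08. With the mean of the proximal small intestine genes as a covariate, Mep1a at -2.72 (limma, adjusted p = 0.00021) and Alpi at 1.40 (limma, adjusted p = 0.0011) were again the only calls among the 8. Over all 19037 genes tested, the fit with replicates 3 to 6 called 1499 and the covariate fit 1376. BRAFV600E replicate 1, on the slide with the controls, and replicate 5, on the other slide, had proximal means of 4.31 and 4.48. Replicate 1 lay below all controls in each of these 5 genes, and replicate 5 did so in Enpep alone. The parts of slide and of BRAFV600E replicate 2 in these 5 genes were not tested.

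**Figure D3:**
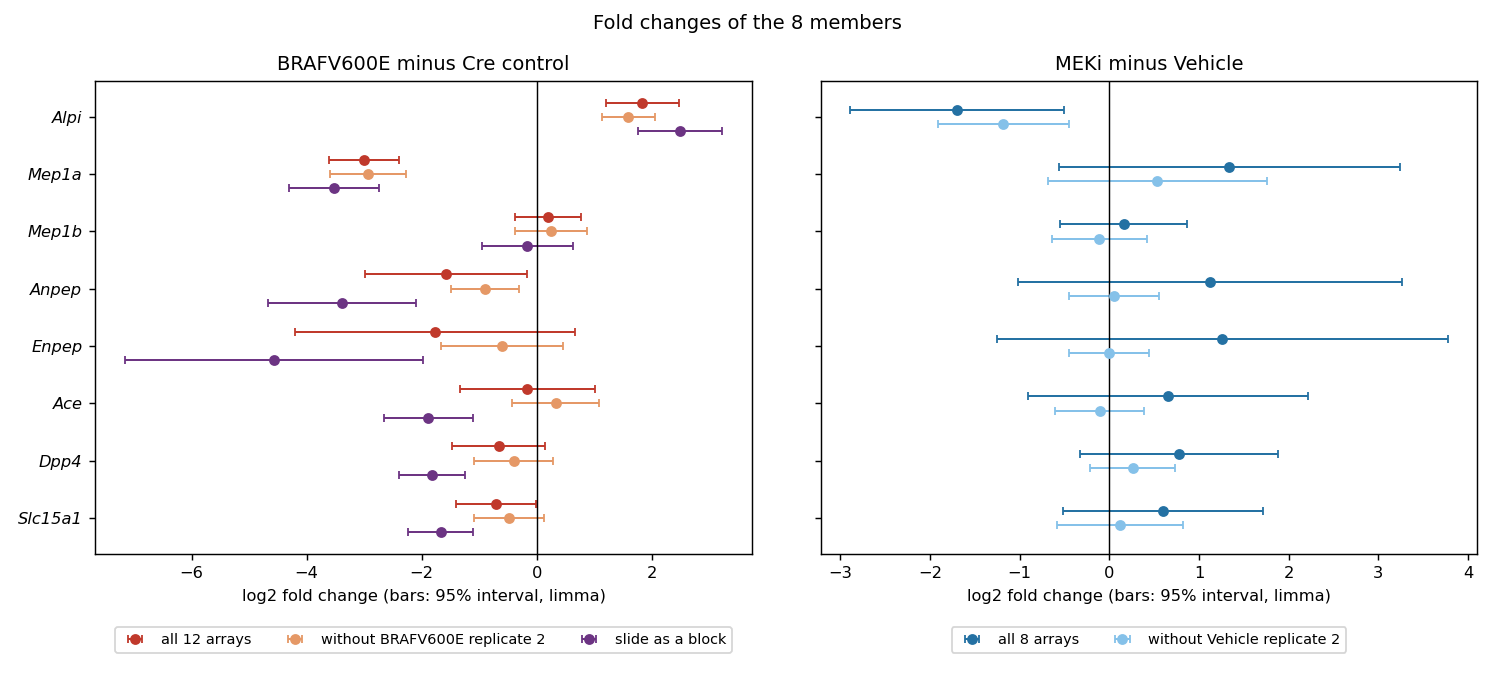
Log2 fold change of each of the 8 genes with its 95% interval from limma, for BRAFV600E minus Cre control on the left and MEKi minus Vehicle on the right. Mep1a and Alpi keep their place with all arrays, without BRAFV600E replicate 2 and with the slide as a block, whereas Enpep moves from -1.77 to -0.61 and -4.57. Without Vehicle replicate 2 the genes other than Mep1a and Alpi lie between -0.12 and 0.26 on the right.

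MEKi against Vehicle asks which levels depend on MEK, the kinase downstream of BRAF, in mice that had received tamoxifen. These arrays shared 1 slide, with every MEKi array in row 1 and every Vehicle array in row 2. Treatment and row of the slide therefore cannot be told apart. None of the 8 genes passed the test in this comparison with limma, and 1 (Alpi) had an unadjusted p under 0.05, a share not counted over all genes. Of all 19230 genes tested, 1.94% passed, 1.06% as higher and 0.889% as lower. The fold change was above 0 for 7 of the 8 genes (54.4% of all genes) and below 0 for Alpi (45.6% of all genes), with a median log2 fold change of 0.72 against 0.04 over all genes. Vehicle replicate 2 set most of these values.

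Alpi was at 5.54, 7.82, 5.70 and 6.03 on the Vehicle arrays and at 4.23, 5.39, 4.15 and 4.53 on the MEKi arrays. Every MEKi array lay below every Vehicle array, a separation seen in this direction for 5.83% of all genes tested and in the opposite one for 6.35%. The log2 fold change was -1.70 with a standard error of 0.52 (95% interval -2.89 to -0.50, limma, adjusted p = 0.158), and -1.18 without Vehicle replicate 2 (95% interval -1.91 to -0.45, limma, adjusted p = 0.115). It passed where all 20 arrays shared 1 fit (limma, adjusted p = 0.048) and with array weights (limma, adjusted p = 0.045). The mean of 4 Y-linked genes ran from -1.32 to -0.99 on MEKi arrays. On Vehicle replicates 1 to 4 it was -1.23, -5.97, -1.27 and -6.28. With this mean as a covariate Alpi was at -1.08 (limma, adjusted p = 0.507). In the other comparison the Y-linked mean was -4.95 or lower on Cre control replicates 4 to 6 and BRAFV600E replicates 4 and 5. It was -1.34 or higher on the remaining arrays there. Alppl2 and Akp3 had fold changes in the same direction, -2.10 (limma, adjusted p = 0.365) and -2.72 (limma, adjusted p = 0.504), which were -0.99 and -0.73 without Vehicle replicate 2.

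Mep1a was at 3.82, 0.31, 3.61 and 3.12 on the Vehicle arrays and at 4.59, 5.21, 3.14 and 3.27 on the MEKi arrays. The lowest value was Vehicle replicate 2. Vehicle replicates 1 and 3 lay among the MEKi arrays, and Vehicle replicate 4 lay just below the lowest of them. The log2 fold change was 1.34 (95% interval -0.56 to 3.24, limma, adjusted p = 0.491) and 0.54 without that array (limma, adjusted p = 0.674). Mep1b was at 5.28, 4.05, 5.03 and 5.13 on the Vehicle arrays and at 5.12, 5.43, 5.10 and 4.48 on the MEKi arrays, with a log2 fold change of 0.16 (95% interval -0.55 to 0.87, limma, adjusted p = 0.862).

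The other 5 genes had 1 pattern in common. Anpep was at 8.57, 4.20, 8.62 and 8.23 on the Vehicle arrays and between 8.07 and 8.81 on the MEKi arrays. Enpep was at 4.14, -1.03, 3.94 and 4.01 on the Vehicle arrays and between 3.55 and 4.22 on the MEKi arrays. Each had 1 Vehicle array, replicate 2, far below the rest.

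Ace was at 5.17, 1.98, 5.08 and 4.86 in Vehicle and between 4.52 and 5.30 in MEKi tissue. Dpp4 was at 4.41, 2.23, 4.22 and 4.33 in Vehicle and between 4.06 and 4.77 in MEKi tissue. Slc15a1 was at 2.99, 0.97, 2.97 and 2.67 in Vehicle and between 2.55 and 3.79 in MEKi tissue. In all 3 the lowest value was again Vehicle replicate 2.

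The log2 fold changes of these 5 genes ran from 0.60 for Slc15a1 to 1.26 for Enpep, with adjusted p between 0.49 and 0.71 (limma). Without Vehicle replicate 2 they were 0.055 for Anpep, -0.0079 for Enpep, -0.11 for Ace, 0.26 for Dpp4 and 0.12 for Slc15a1. The 95% interval was then -0.45 to 0.56 for Anpep and -0.46 to 0.44 for Enpep, so a larger difference between the remaining arrays lies outside it.

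**Figure D4:**
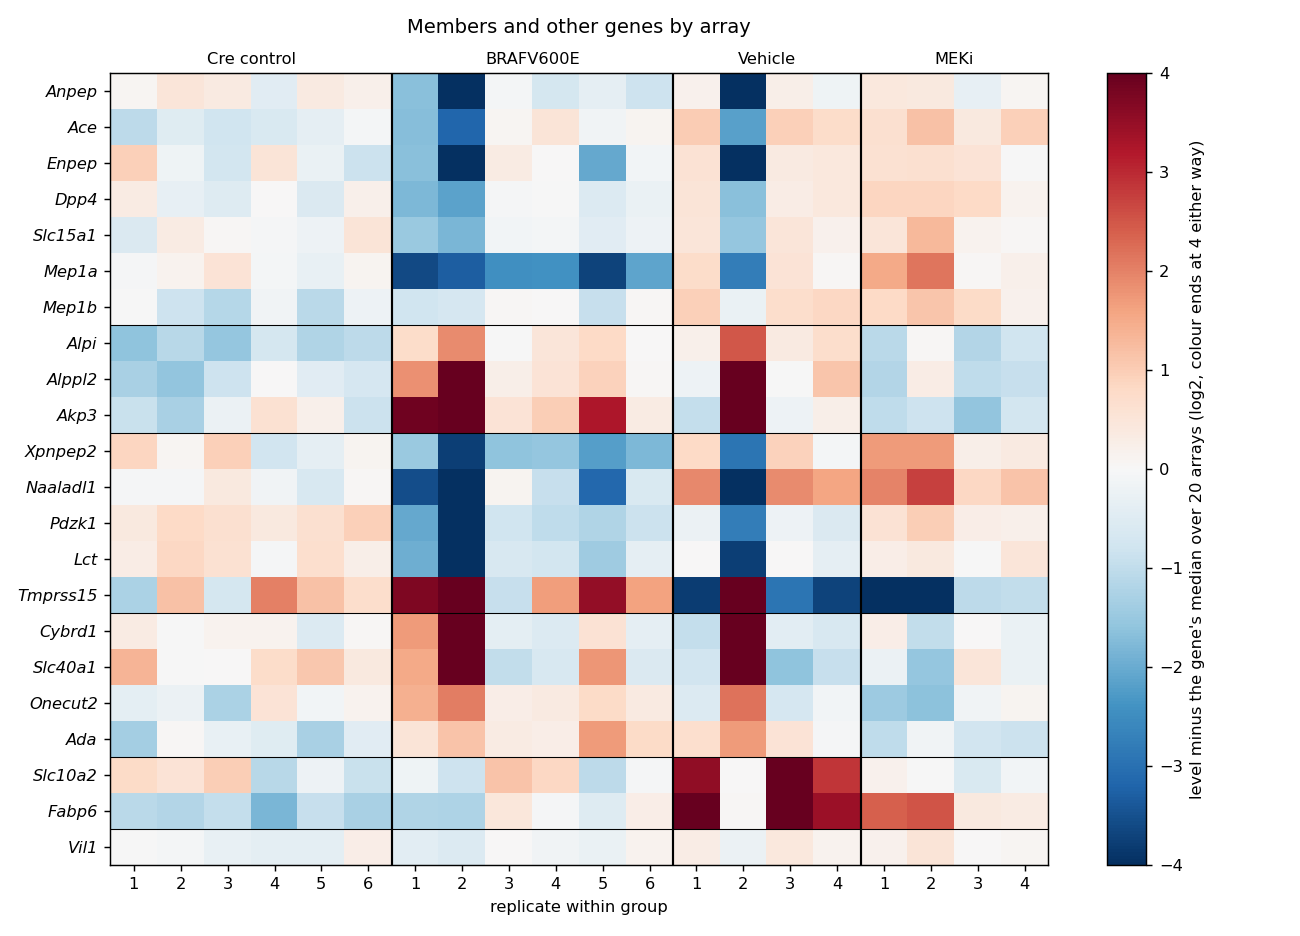
Level of the members and of other genes on each array minus the gene's median over the 20 arrays (log2, colours end at 4 either way), with arrays ordered by group and replicate and rows grouped as members, alkaline phosphatases, other surface genes, proximal genes, distal genes and Vil1. BRAFV600E replicate 2 and Vehicle replicate 2 are low in Anpep, Ace, Enpep and Lct and high in Alpi, Akp3, Cybrd1 and Slc40a1, and Mep1a is low on all 6 BRAFV600E arrays.

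The likeness of patterns was described over the 20 arrays after the mean of each group was subtracted. Alpi was negatively correlated with each of the other 7, from Pearson r = -0.82 with Anpep to -0.44 with Mep1b, while Anpep and Ace correlated at 0.93. Over the 18 arrays without BRAFV600E replicate 2 and Vehicle replicate 2, these values were -0.20, -0.073 and 0.64, and those of Alpi with the 7 ran from -0.34 to 0.19. The arrays share groups and slides. Among 18359 genes tested in both comparisons, the one outside the 8 most like each member was Aplp1 for Anpep (Pearson r = 0.97, and 0.61 over those 18 arrays), Osr2 for Enpep (0.96 and 0.67), Tmem86b for Ace (0.97 and 0.86) and Asah2, the brush border ceramidase, for Dpp4 (0.95 and 0.91). For Slc15a1 it was Slc43a2, an amino acid carrier (0.94 and 0.91), for Mep1a Gsdme (0.96 and 0.92), for Mep1b the pantetheinase gene Vnn1 (0.91 and 0.90) and for Alpi Gm5485 (0.94 and 0.84). These are the highest of many values and carry no test.

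Beside the members, 6 lists of related genes hold 56 genes including Alpi, of which 55 were tested. In BRAFV600E against Cre control 5 of these passed as higher (6.4% of all genes tested) and 6 as lower (6.51%). In MEKi against Vehicle 0 of 55 passed with limma (1.94% of all genes tested), while 9 had an unadjusted p under 0.05. The share of all genes with such an unadjusted p was not counted.

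Among 10 other peptidases of the enterocyte surface and lumen, 9 were tested and 3 were lower in BRAFV600E tissue, none higher, with a list median of -0.57. Xpnpep2, a membrane aminopeptidase P, fell by 2.21 on the log2 scale (standard error 0.41, limma, adjusted p = 0.0056), with levels from 2.78 to 4.50 in Cre control and from -0.21 to 2.06 in BRAFV600E mice, which did not overlap. Cpm, carboxypeptidase M, fell by 1.13 (limma, adjusted p = 0.0014) and also without overlap, from 0.23 to -0.90 in the group means. Mme, neprilysin, fell by 0.57 (limma, adjusted p = 0.04) but not without replicate 2, where it was at -0.50 (limma, adjusted p = 0.08). Cpm was at 0.77 in MEKi against Vehicle (limma, adjusted p = 0.093), and without Vehicle replicate 2 it was at 0.94 and passed (limma, adjusted p = 0.03). Of the 7 cytosolic peptidases, 0 passed in either comparison with limma, and 1 had an unadjusted p under 0.05 in BRAFV600E against Cre control: Pepd, prolidase, at -0.83 (limma, adjusted p = 0.054).

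Among 13 genes of brush border structure 1 passed in BRAFV600E against Cre control, against 12.9% of all genes. It was Pdzk1, a scaffold that holds carriers at the apical membrane, which fell by 2.46 on the log2 scale (standard error 0.61, limma, adjusted p = 0.022). The value was -1.82 without replicate 2 (limma, adjusted p = 0.00071), and Pdzk1 ran from 5.12 to 5.69 in Cre control and from -0.34 to 3.93 in BRAFV600E mice, without overlap. Villin itself was at -0.05 (95% interval -0.39 to 0.29, limma, adjusted p = 0.87), and the median of the 13 was 0.10. With levels relative to the epithelial markers 5 of the 13 passed as lower, where 7230 of all 19037 genes tested did. With the slide as a block 2 of the 13 did, with a list median of -0.31, where 1068 of 19037 did. In MEKi against Vehicle the smallest p of the list belonged to Pls1, an actin bundling protein of microvilli, at 0.46 (limma, adjusted p = 0.221), and Pdzk1 was at 1.46 (limma, adjusted p = 0.241), or 0.85 without Vehicle replicate 2 (limma, adjusted p = 0.109).

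Among 12 transcription factors of the gut epithelium, Hnf4a at 0.60 (limma, adjusted p = 0.045) and Gata4 at 0.49 (limma, adjusted p = 0.032) passed as higher in BRAFV600E tissue, and neither passed without replicate 2 (limma, adjusted p = 0.071 and 0.065). Gata4 is also one of the 7 proximal genes above. The list's median was 0.34, with 10 of the 12 above 0. Among 10 disaccharidases and enterocyte markers, Rbp2, the retinol carrier of enterocytes, was higher at 0.97 (limma, adjusted p = 0.017), and Mgam, maltase-glucoamylase, and Fabp2, a fatty acid binding protein, were lower at -1.15 (limma, adjusted p = 0.019) and -0.67 (limma, adjusted p = 0.047). Without replicate 2 Fabp2 was at -0.59 and did not pass (limma, adjusted p = 0.094). The list's median was -0.43. With the slide as a block Rbp2 at 0.43 (limma, adjusted p = 0.282), Mgam at -1.14 (limma, adjusted p = 0.101), Hnf4a at 0.59 (limma, adjusted p = 0.18) and Gata4 at 0.49 (limma, adjusted p = 0.134) did not pass. Lactase (Lct) did not pass with all arrays (log2 fold change -2.89, limma, adjusted p = 0.158) and did without replicate 2 (-1.45, limma, adjusted p = 0.01). In MEKi against Vehicle the smallest p of these lists belonged to Gata6 at -0.52 (limma, adjusted p = 0.13) and Rbp2 at -0.93 (limma, adjusted p = 0.065).

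**Figure D5:**
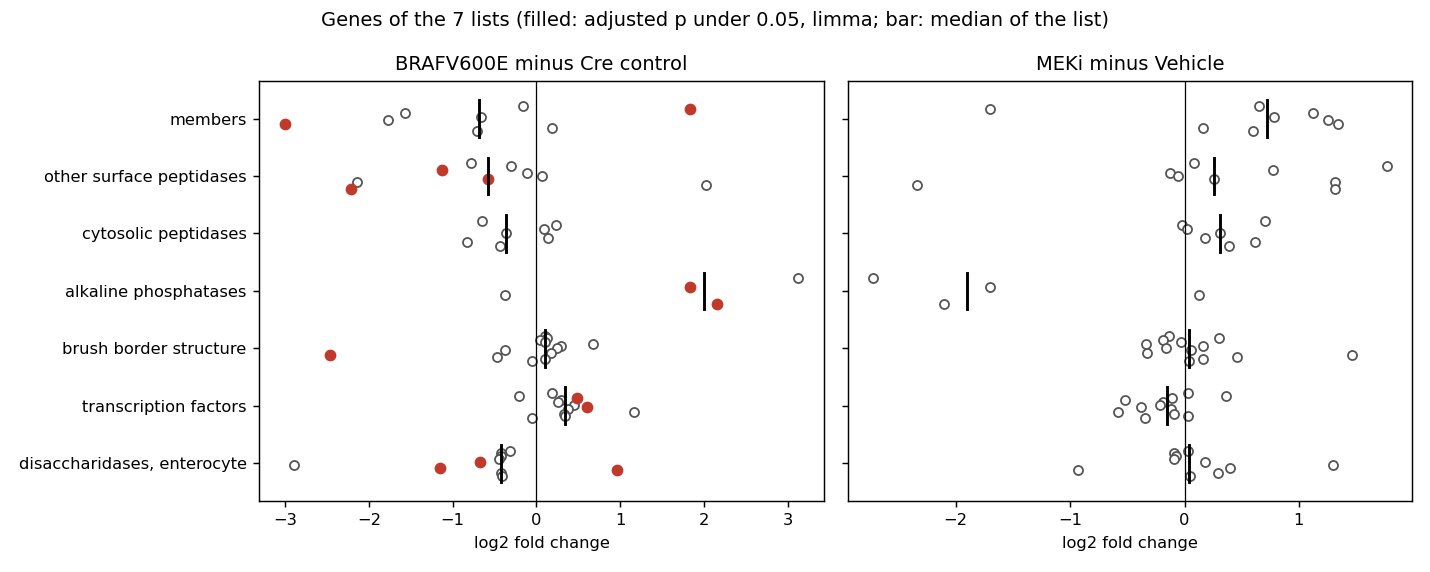
Log2 fold change of each tested gene of the members and the 6 related lists, for BRAFV600E minus Cre control on the left and MEKi minus Vehicle on the right, with filled points for genes called at an adjusted p under 0.05 (limma) and a bar for the median of the list. Alpi is drawn among the members and among the alkaline phosphatases. Filled points are on the left panel alone, 5 to the right of 0 and 7 to the left when each gene is counted once.

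Some markers of other cells and places also differed in the first comparison, where 12.9% of all genes were called. In the 12 arrays of that comparison 3 of 7 epithelial markers, 2 of 6 smooth muscle markers and 2 of 7 proximal small intestine genes passed as higher, and 2 of 6 T lymphoid markers, 1 of 5 distal small intestine genes and 1 of 4 colon genes as lower. Of the exocrine pancreas genes 1 of 4 tested was higher, and of the endothelial, fibroblast and B lymphoid markers (6 each) and the 4 Y-linked genes 0 passed with limma (0, 0, 3 and 0 at an unadjusted p under 0.05). The mean of the epithelial list ran from 5.09 to 5.54 in Cre control and from 5.52 to 6.03 in BRAFV600E mice. Where levels were taken relative to this mean, Anpep at -2.02 (limma, adjusted p = 0.024), Dpp4 at -1.11 (limma, adjusted p = 0.027) and Slc15a1 at -1.16 (limma, adjusted p = 0.011) passed beside Mep1a and Alpi. That scaling moved the median of all genes to -0.47. Over all 19037 genes tested it called 232 as higher and 7230 as lower. The part of these markers in the members' differences was not tested.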

How the data were processed

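Total RNA of intestinal tissue was hybridised to 1-colour Agilent SurePrint G3 Mouse arrays. Per the file headers, the authors extracted each array with Agilent Feature Extraction 10.5.1.1, and the deposited processed intensity per spot is on a linear scale, background-subtracted and not normalized between arrays. The deposited 0 or 1 marks per spot (values of another kind) served as filters. The deposited series matrix held the same intensity, within 0.5% of the scanner value for 100% of spots.

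Of 62976 spots per array, 59305 were not controls, forming 56605 probes. Between 60.8% and 76.8% of these spots were well above background, 0 were saturated, and the 75th percentile of the intensity ran from 540 to 1554. The slope of the spike-in fit recorded with each array was 0 on BRAFV600E replicates 3 to 6, which shared a slide. It lay between 0.76 and 1.08 on every other array, and the bearing of this difference was not tested. Precision is limited by how few arrays each group has. One treatment text stands on every sample's labels and matches no group, so it was not used.

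Intensities were put on the log2 scale, each array's 75th percentile was subtracted, and copies of a probe were averaged. Probes were named by accession (34023), symbol (9993) or synonym (318) through RefSeq (GRCm38.p6), and 12271 had no symbol. The probe with the highest mean over 20 arrays stood for a gene. Genes well above background on at least 6 of 12 or 4 of 8 arrays were tested with limma (3.58.1, R 4.3.3), 2-sided, each comparison on its own arrays without covariates, with Benjamini-Hochberg adjustment over all genes tested and a threshold of 0.05. The test recovered most of the largest planted changes in simulated data with independent noise for each probe. No bar was set for smaller planted changes, so the check does not bear on small differences. That simulation held no outlying arrays and no slide differences, so it does not bear on them.

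The members, the gene lists and the tests were chosen with earlier results of these data known. Named genes are all members and alkaline phosphatases and, from each other list, up to 4 called genes with the largest change per comparison, or the gene with the smallest p. Lct, Vil1, Pdzk1 in the MEKi comparison, the genes of the closing section and the arrays that stood apart were named after their values were seen. Probe coordinates are those of the files (mm9), and whether a probe lies in an exon or a UTR was not analysed here. Alternatives were another background correction, scaling, probe choice, filter, fit, covariate or block, and leaving out each array. Using the proximal genes as a covariate, and BRAFV600E replicates 3 to 6 only, were added after seeing the data.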

Additional observations from a re-analysis of the deposited data

Results flagged for a closer look

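Of 32 sets of arrays (each of the 8 genes in each of the 4 groups), 8 held 1 array far from the others by Dixon's criterion at the 95% level, which chance alone gives in about 1 of 20 sets. The highest or lowest level lay apart from the nearest other by most of the group's whole range. On Vehicle replicate 2 this was so for Anpep at 4.20, Ace at 1.98, Dpp4 at 2.23, Enpep at -1.03 and Slc15a1 at 0.97, all below the other 3 arrays, for which the nearest levels were 8.23, 4.86, 4.22, 3.94 and 2.67. On BRAFV600E replicate 2 it was so for Anpep at 3.62 and Enpep at -4.08, where the nearest levels were 6.71 and 1.53. The remaining case was Dpp4 on MEKi replicate 4, at 4.06 against a nearest level of 4.71. These are log2 levels relative to the 75th percentile of the array.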

How the results depend on the processing

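Mep1a and Alpi were called in BRAFV600E against Cre control under all 28 alternatives, with log2 fold changes from -3.52 to -2.19 and from 1.39 to 2.65. For every other change listed here the cause was not tested. The 2459 genes called were 4825 with normexp, 9337 with no scaling, 7462 centred on epithelial markers, 3695 over single probes, 3856 with array weights, 1376 with the proximal genes as a covariate, 1499 with BRAFV600E replicates 3 to 6 only, 1568 with the slide as a block, 731 within slide 1 and 1472 (without Cre control replicate 3; 1570 without replicate 2) to 2950 leaving out 1 array. No scaling, epithelial centring and normexp moved the median of all genes to 0.79, -0.47 and -0.14, and the split of higher against lower calls from 1219 and 1240 to 9161 and 176, 232 and 7230, and 1595 and 3230. The 2 members called were 5 centred on epithelial markers, 7 with the slide block, 6 within slide 1 and 2 leaving out any array. The 11 list genes called were 32 with no scaling, 23 with epithelial centring, 6 with no filter, 7 over single probes, 7 with the Y-linked covariate, 6 with the proximal covariate, 7 with replicates 3 to 6 only, 19 with the slide block and 6 to 12 leaving out 1 array (6 without Cre control replicate 2, 3 or 5 or BRAFV600E replicate 4, and 7 without BRAFV600E replicate 1). In MEKi against Vehicle the 374 genes called were 72 with no scaling, 1203 with epithelial centring (median of all genes 0.30), 234 with no filter, 1209 with array weights, 54 with the Y-linked covariate, 11 with the array column and 76 to 370 leaving out 1 array, at most 189 without any 1 array other than MEKi replicate 2 (370) and Vehicle replicate 2 (344). The 0 members called were 1 with all 20 arrays in 1 fit and with array weights, and 0 leaving out any array. The 0 list genes called were 3 with all 20 arrays in 1 fit, 4 with array weights, 1 each with epithelial centring, genes above background on every array, limma's trend and robust options and the proximal covariate, and 0 to 1 leaving out 1 array.

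Signs turned only in members that had not been called. In BRAFV600E against Cre control Ace was at 0.65 with no scaling, 0.21 with array weights, 0.022 with the Y-linked covariate, 0.66 with the proximal covariate, 0.70 with replicates 3 to 6 only, and 0.037 and 0.33 without BRAFV600E replicates 1 and 2, in a range of -0.41 to 0.33 leaving out 1 array. Dpp4 and Slc15a1 were at 0.15 and 0.10 with no scaling, Enpep was at 0.14 with the proximal covariate, and Mep1b was at -0.26 with epithelial centring and -0.16 with the slide block and within slide 1. In MEKi against Vehicle, with the Y-linked and the proximal covariate, Anpep was at -0.029 and -0.042, Ace at -0.18 and -0.18, and Mep1b at -0.12 and -0.16. Mep1b was at -0.21 with array weights and Enpep at -0.11 with the proximal covariate. Without Vehicle replicate 2, Ace was at -0.11, Mep1b at -0.12 and Enpep at -0.0079, where leaving out 1 array gave values up to 0.95, 0.34 and 1.71. The proximal covariate and replicates 3 to 6 only were added after seeing the data. No paired analysis was possible because replicate numbers were given in accession order and pair no samples.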

Other observations

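Tmprss15, which encodes enteropeptidase, the duodenal activator of trypsinogen, was high on the 2 arrays that stood apart. Its level was 3.89 on BRAFV600E replicate 2 and 3.93 on Vehicle replicate 2, between -5.54 and -4.66 on the other 3 Vehicle arrays, and -7.80 and -7.76 on MEKi replicates 1 and 2. It was not well above background on these MEKi arrays or on Vehicle replicates 1 and 3. In BRAFV600E against Cre control the log2 fold change was 2.02 (limma, adjusted p = 0.168), 1.41 without BRAFV600E replicate 2 (limma, adjusted p = 0.302) and 4.16 with the slide as a block (limma, adjusted p = 0.036). Naaladl1, from the same list of other surface and lumen peptidases, went the other way on these arrays. It was at -3.61 on BRAFV600E replicate 2 and -2.48 on Vehicle replicate 2, against 0.88 to 1.91 on the 6 Cre control arrays. BRAFV600E replicates 1 and 5 were also low in Naaladl1, at -2.04 and -1.63, and high in Tmprss15, at 1.97 and 1.77.

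Fabp6, the ileal bile acid binding protein, was at 3.74, 2.89 and 1.32 on Vehicle replicates 1, 3 and 4, at -2.03 on Vehicle replicate 2, at 0.30, 0.42, -1.69 and -1.75 on the MEKi arrays, and at -1.62 or lower on all 12 arrays of the other experiment.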
